A study of Rattus norvegicus with 16 samples.

Results

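Dentate gyrus from rats labelled 6 h was set against dentate gyrus from rats labelled naive, with 3 arrays in each group and 6 of the 16 arrays of the study in all. These arrays were taken by their labels alone, and the description runs across every gene that the arrays measured. Each array is an Affymetrix RGU34A, a single-colour rat expression array, and the sample material was total RNA. The 10 arrays of the other groups, labelled 0 h, 2 h, 3 h, 12 h and 24 h with 2 arrays each, entered the fit that estimates the spread and a second comparison near the end. The labels of all groups, naive included, describe the rats as trained in passive avoidance, so the 6 h and naive groups share that wording. Naive is read here as untrained, and the labels do not state from which event the hours count. Strain, sex, age and housing are not in the labels. The labels call arrays of a group replicates without saying that they came from separate animals, so a p-value covers nothing beyond the variation among these arrays, and that variation may be technical.

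In passive avoidance, an animal stays away from a place or action after an unpleasant experience there, and the memory of it is tested later. The dentate gyrus is the entrance of the hippocampal formation, where granule neurons receive cortical input through glutamate synapses and pass it on to field CA3. In neurons of this kind, learning and strong synaptic activity are known to be followed by an early burst of transcription factor genes and later by changes in genes of synapses, the cytoskeleton and protein synthesis. Total RNA from a dissected tissue holds the RNA of all its cells, and fewer cells of a type and less RNA per cell cannot be told apart.

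Before scaling, the trimmed mean intensity was 56.5, 68.4 and 108.7 on 6 h replicates 1 to 3, against 126.8, 112.6 and 142.5 on naive replicates 1 to 3. Gapdh control probe sets at the 3′ and 5′ ends give a ratio that is larger when the labelled copies are shorter, and it was 1.56, 2.04 and 1.25 on the 6 h arrays, against 1.12, 1.25 and 1.28 on the naive arrays. The same ratio for beta-actin was 1.92, 2.30 and 2.02 at 6 h, against 1.70, 1.49 and 1.70 in naive. The 6 h arrays were less alike than the naive arrays, with correlations of 0.918 to 0.942 among 6 h arrays and 0.944 to 0.956 among naive arrays. Replicate 2 of 6 h had the lowest mean correlation with the other 15 arrays (0.918). Replicate 3 of 6 h correlated with the naive arrays at 0.956 on average and with the other 6 h arrays at 0.934. The granule neuron marker Calb1, which encodes calbindin, was well measured at 8.59, 8.93 and 8.87 at 6 h, against 8.17, 8.42 and 8.73 in naive, and so was Ncdn (neurochondrin) at 11.68, 11.27 and 10.57 at 6 h, against 10.79, 10.89 and 10.93 in naive. Of 16 granule neuron markers, 7 were measured and none had an unadjusted p under 0.05. Of these 7, 3 lay above naive and 4 below, with a median log2 difference, 6 h minus naive, of -0.11. All 6 h arrays lay below all naive arrays for 2 of them, against 5.27% of all genes, and above for none. These 2 were Npy1r (-0.43) and Penk (-0.29).

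All gene values that follow are log2 scaled intensities, and all differences are 6 h minus naive on that log2 scale with the standard error (SE) of the fit, n = 3 arrays per group. No level was allowed under a floor of 2.34, which is the 20th percentile of all arrays pooled. Of 6220 probe sets tested with limma, the difference was above 0 in 2912 (46.8%) and below 0 in 3308 (53.2%). None of them passed a Benjamini-Hochberg adjusted p of 0.05, and the smallest adjusted p was 0.234. At an unadjusted p under 0.05 there were 585 (9.41%), of which 194 were higher at 6 h (3.12%) and 391 were lower (6.29%). All 3 arrays of 6 h lay above all 3 of naive for 270 probe sets (4.34%) and below them for 408 (6.56%). With 1 probe set for each of 3678 genes, 117 were higher (3.18%) and 176 lower (4.79%) at the unadjusted threshold, 174 lay fully above (4.73%) and 194 fully below (5.27%), and the median difference was -0.00. The gene lists were drawn up with earlier results of these data known, and counts in each list are to be read against these shares. Every difference below is therefore a measured value that did not pass adjustment. Without 6 h replicate 3, 29 probe sets passed, and without naive replicate 1, 1 did, the peptidase gene Ace (-2.06, adjusted p = 0.0226 by limma). The number of unadjusted calls was 893 without 6 h replicate 3 and 365 without 6 h replicate 2.

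The lower side was uneven between the kinds of probe set on the array. Probe sets whose names start with rc_, named after expressed sequence tags (EST), are called EST probe sets here. All remaining ones are called other. They include those named after cDNA and coding sequences, and also some named after tags without that prefix. Of 2537 EST probe sets, 108 were higher (4.26%) and 83 lower (3.27%) at the unadjusted threshold, with a median difference of 0.05. Of the 3683 other probe sets, 86 were higher (2.34%) and 308 lower (8.36%), with a median of -0.08. In 321 genes that had both kinds, the other probe sets gave the lower difference in 196. The median gap within these genes, relative to the naive mean, was -0.17, -0.36 and 0.01 on the 6 h arrays, against 0.06, 0.01 and -0.06 on the naive arrays. The gap was therefore wide on 6 h replicates 1 and 2, which also had the highest Gapdh ratios of the 6 arrays, and near 0 on 6 h replicate 3. The part of RNA length in the differences below was not tested, and the vesicle, glutamate, chaperone, ribosomal and oxidative phosphorylation groups are given by kind of probe set beside their counts.

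**Figure D1:**
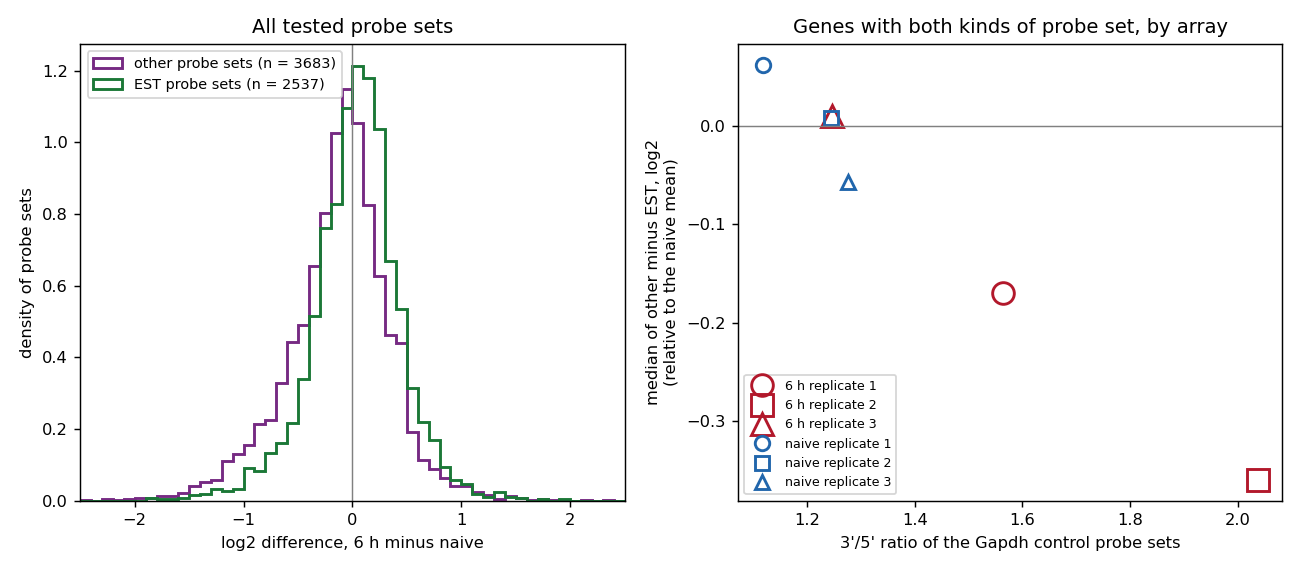
The left plot shows the distribution of log2 differences, 6 h minus naive, for 3683 other and 2537 EST probe sets. The right plot sets, for each of the 6 arrays, the median gap between other and EST probe sets of the same gene (log2, relative to the naive mean) against the 3′/5′ ratio of the Gapdh control. 6 h replicates 1 and 2 lie at -0.17 and -0.36, and 6 h replicate 3 lies among the naive arrays.

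The smallest p belonged to Kif3c, a kinesin of the heterotrimeric motor family that carries cargo along neuronal microtubules. It read 5.48, 4.47 and 4.93 on the 6 h arrays, against 6.70, 6.47 and 6.38 on the naive arrays. Every 6 h array lay below every naive array (difference -1.56, SE 0.30, 2.94-fold lower, adjusted p = 0.234 by limma). The gap between the groups was wider than the range within naive but narrower than the range within 6 h. An EST probe set for the same gene read 8.08, 8.59 and 8.30 at 6 h, against 8.16, 8.38 and 8.68 in naive, and those groups overlapped (-0.09, SE 0.20).

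App encodes the amyloid precursor protein, a membrane protein of neurons and synapses. Its first probe set read 7.25, 7.97 and 8.56 at 6 h, against 9.37, 9.02 and 9.34 in naive (difference -1.32, SE 0.26, adjusted p = 0.234 by limma). The second read 8.44, 7.66 and 8.45 at 6 h, against 9.40, 9.03 and 9.52 in naive (-1.13, SE 0.23, adjusted p = 0.234). Both put all 6 h arrays below all naive arrays. These are 2 overlapping probe sets of 1 coding sequence and not independent measurements. Without 6 h replicate 3 they were -1.64 (adjusted p = 0.012) and -1.27 (adjusted p = 0.0399 by limma). Aplp2, a relative of App, had 2 probe sets fully below naive (-1.54, SE 0.70, and -1.10, SE 0.34) and 2 whose groups overlapped (-0.38 and -0.25). The list of amyloid precursor family and secretase genes had 10 of 15 measured genes below naive and a median of -0.12. At the unadjusted threshold 1 gene was higher and 1 lower (3.18% and 4.79% of all genes).

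Sv2b, a glycoprotein of synaptic vesicles, read 6.30, 5.74 and 6.64 at 6 h, against 7.33, 7.55 and 7.80 in naive (difference -1.33, SE 0.27, adjusted p = 0.234 by limma). The groups did not overlap. Its EST probe set, at a higher level, read 10.31, 11.44 and 10.25 at 6 h, against 10.41, 10.33 and 10.71 in naive, with overlap and a difference of 0.18 (SE 0.29). Prkcb encodes protein kinase C beta, a kinase activated by calcium and diacylglycerol. It read 7.18, 6.31 and 6.26 at 6 h, against 7.74, 7.51 and 7.43 in naive, so that replicates 2 and 3 of 6 h were more than 1 log2 unit under the lowest naive array and replicate 1 was close to it (difference -0.97, SE 0.23, adjusted p = 0.368 by limma). The other Prkcb probe sets gave -0.49 (SE 0.33) and 0.03 (SE 0.19), both with overlap.

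**Figure D2:**
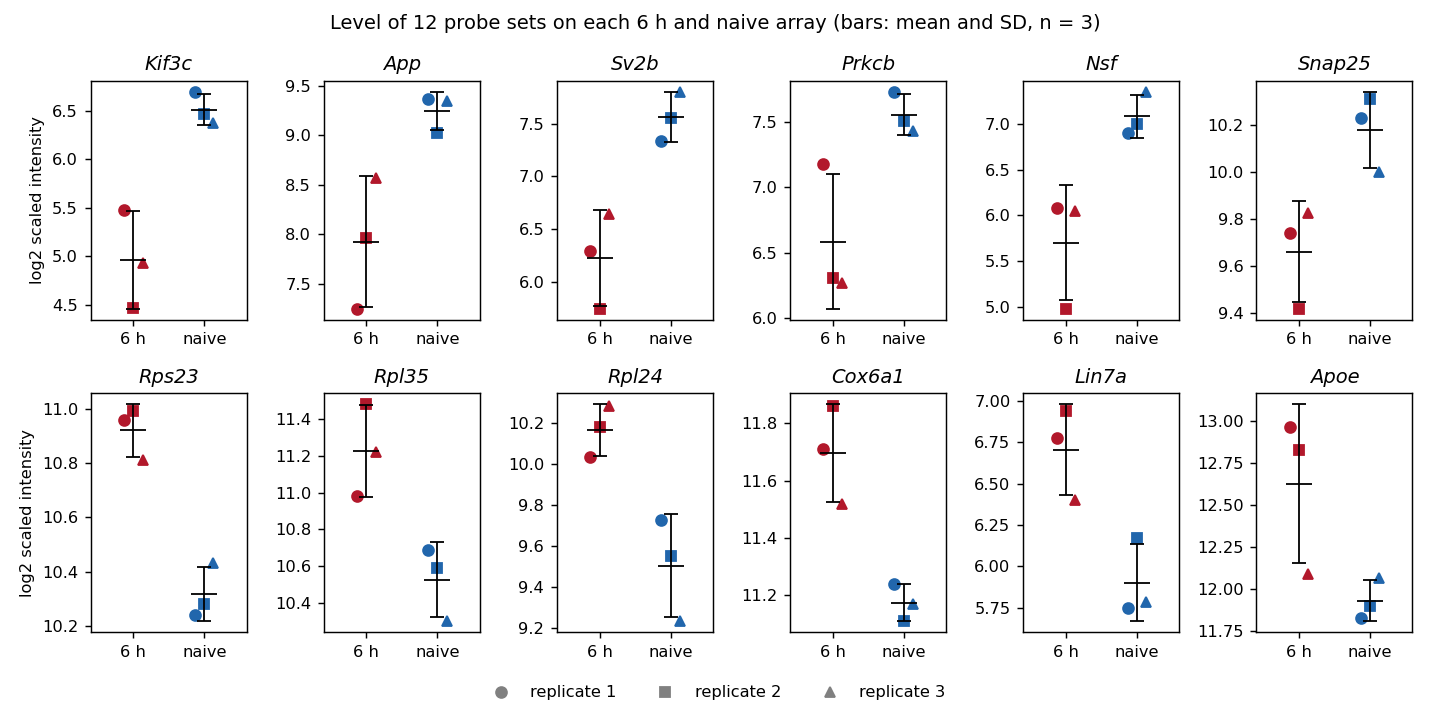
Each panel shows the log2 scaled intensity of 1 probe set on the 3 arrays of 6 h (red, left) and the 3 naive arrays (blue, right), with symbols for replicates and bars for the mean and SD. In the upper row, all 6 h arrays lie below all naive arrays for Kif3c, App, Sv2b, Prkcb, Nsf and Snap25. In the lower row, all 6 h arrays lie above all naive arrays for Rps23, Rpl35, Rpl24, Cox6a1, Lin7a and Apoe.

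Genes of the synaptic vesicle and its release were more often lower than higher at 6 h. Of 62 measured genes, 10 were lower and 2 higher at the unadjusted threshold, where 4.79% and 3.18% of all genes were. Of these 62, 8 lay fully below naive and 1 fully above (5.27% and 4.73% of all genes). The median was -0.12, with 36 genes below naive, against a median of -0.00 over all genes, and it was -0.031 with median centring and -0.29 with the mean over the probe sets of each gene. The mean over the list, relative to the naive mean, was -0.06, -0.22 and -0.18 on the 6 h arrays, against -0.01, 0.02 and -0.01 on the naive arrays. By probe set, 19 of 72 other probe sets and 2 of 18 EST probe sets were lower, with medians of -0.30 and -0.02.

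Of 25 measured SNARE proteins and regulators at the plasma membrane, 12 lay above and 13 below naive (median -0.11). At the unadjusted threshold 5 were lower and 2 higher (4.79% and 3.18% of all genes). Nsf, the ATPase that takes spent SNARE complexes apart, read 6.09, 4.97 and 6.05 at 6 h, against 6.91, 7.003 and 7.36 in naive, with no overlap (difference -1.39, SE 0.42, adjusted p = 0.388 by limma). A second Nsf probe set gave -1.26 (SE 0.54), also without overlap. Snap25, a SNARE protein of the presynaptic membrane, was measured by 4 probe sets, and all 4 were lower with an unadjusted limma p of 0.00164 to 0.0266. Its probe set with the highest mean read 9.66 ± 0.22 at 6 h, against 10.18 ± 0.16 in naive (SD, n = 3 each), and the highest 6 h array (9.82) lay under every naive array (-0.52, SE 0.18). The others gave -1.16 (SE 0.31), -0.91 (SE 0.38) and -0.87 (SE 0.33), and of the 4 probe sets 2 had groups that did not overlap.

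Of 19 measured proteins of the vesicle itself, 13 lay below naive (median -0.30). At the unadjusted threshold 3 were lower and none higher (4.79% and 3.18% of all genes). Rab3a, a small GTPase of vesicle docking, read 8.65, 8.66 and 8.49 at 6 h, against 9.23, 9.08 and 9.37 in naive (difference -0.63, SE 0.18, adjusted p = 0.373 by limma). The spread among 6 h arrays was small for Rab3a and the groups were clearly apart. Syn1, which encodes synapsin I and tethers vesicles to actin, gave -0.63 (SE 0.21) and Syt1, the calcium sensor of fast release, gave -1.06 (SE 0.40), both without overlap. Vamp1, a vesicle SNARE, was fully below naive by 1 probe set (-1.05, SE 0.26) and overlapped by the other (-0.31, SE 0.28). Cplx1 (complexin, a clamp on the SNARE complex, -0.61), Cadps (a priming factor of dense-core vesicles, -0.44), Ap2a2 (an adaptor of endocytosis, -0.57) and Sh3gl2 (endophilin, -0.98) were among the lower genes. Rab3b, a relative of Rab3a, went the other way at 8.31, 8.84 and 7.92 at 6 h, against 7.71, 7.92 and 7.64 in naive (0.60, SE 0.22), and Stx12, a syntaxin of endosomes, gave 0.49 (SE 0.21).

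Glutamate receptors and their scaffolds lay below naive in 25 of 36 measured genes, with a median of -0.22. None was higher and 3 were lower at the unadjusted threshold (3.18% and 4.79% of all genes), and 7 lay fully below naive and 1 fully above (5.27% and 4.73% of all genes). The list mean was -0.22, -0.33 and -0.14 on the 6 h arrays, against 0.14, -0.04 and -0.10 on the naive arrays, without overlap. The 3 lower genes encode scaffolds of the postsynaptic density, and nothing is read from their number. Dlg3, which encodes SAP102, read 3.98, 4.34 and 5.06 at 6 h, against 5.62, 5.55 and 5.41 in naive (difference -1.06, SE 0.31, adjusted p = 0.388 by limma). Homer1, which links metabotropic receptors to internal calcium stores, gave -0.49 (SE 0.22) without overlap, and Dlg1 (SAP97) gave -1.22 (SE 0.54) with overlap. Of the receptors, the AMPA subunit Gria2 gave -0.12 (SE 0.21) and the kainate subunit Grik5 -0.52 (SE 0.26), while the NMDA subunit Grin3a was above naive (1.02, SE 0.52) at a low level. Only 4 of the 63 probe sets of this list were EST probe sets, and their median was 0.03. The GABA system had 15 of 19 genes below naive and a median of -0.16, with 1 lower and none higher at the unadjusted threshold.

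**Figure D3:**
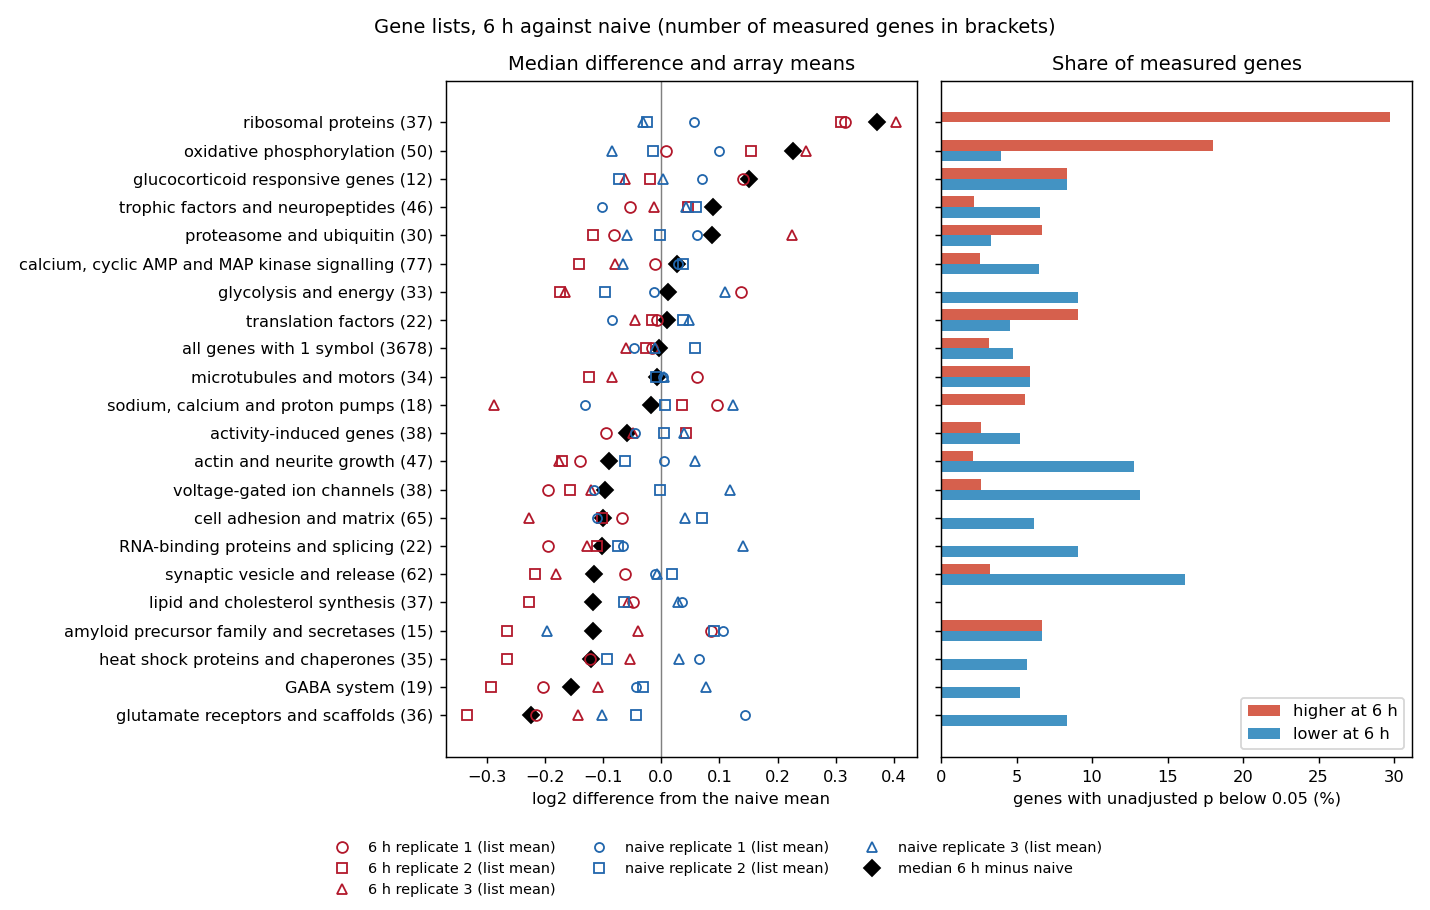
Gene lists are ordered by their median log2 difference, 6 h minus naive. The left plot shows that median (diamond) and the list mean on each 6 h array (red) and each naive array (blue), relative to the naive mean. The right plot shows the percentage of measured genes with an unadjusted p below 0.05 in each direction, which reaches 11 of 37 genes higher for ribosomal proteins and 10 of 62 lower for vesicle genes.

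Signalling genes were divided. Of 77 measured genes of calcium, cyclic AMP and MAP kinase signalling, 43 lay above naive and the median was 0.03. At the unadjusted threshold 2 were higher and 5 lower (3.18% and 4.79% of all genes), and nothing is read from these counts. Gnai1, an inhibitory G protein subunit that acts on adenylyl cyclase, read 5.67, 4.99 and 7.04 at 6 h, against 7.49, 7.21 and 7.30 in naive (difference -1.43, SE 0.40, adjusted p = 0.373 by limma). Replicates 1 and 2 of 6 h were far under naive and replicate 3 was just under it, and without replicate 3 the difference was -2.002 (adjusted p = 0.0158 by limma). Ppp3r1, the regulatory subunit of calcineurin, was fully below naive by both of its probe sets (-1.24, SE 0.56, and -1.02, SE 0.44). In the MAP kinase cascades, Mapk14 (p38 alpha) was fully below naive by 2 of 6 probe sets (-1.50 and -0.64), and the exchange factor Rasgrf1, the GTPase Nras and the kinase Map2k6 gave -0.42, -0.55 and -0.53 without overlap. On the higher side stood Gsk3b, a kinase of the Wnt and insulin pathways, at 5.83, 6.58 and 5.60 at 6 h, against 4.84, 5.23 and 5.22 in naive (0.90, SE 0.28). A second Gsk3b probe set gave 0.60 (SE 0.32), also without overlap. Calm2, which encodes calmodulin, gave 0.45 (SE 0.18) without overlap.

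Kcnab1, an auxiliary subunit of voltage-gated potassium channels, had the largest difference of the 3678 genes, and it rested on replicates 1 and 2 of 6 h. It read 2.71, 2.51 and 6.56 at 6 h, against 6.50, 6.79 and 6.45 in naive. Replicate 3 lay within the naive range, so the groups overlapped (difference -2.65, SE 0.70, adjusted p = 0.373 by limma), and without replicate 3 the difference was -3.97 (SE 0.30, adjusted p = 5.63e-06). Among 38 ion channel genes the median was -0.10, with 5 lower and 1 higher at the unadjusted threshold (4.79% and 3.18% of all genes). Of the pore subunits, the sodium channel Scn8a (-0.81, SE 0.30) and the N-type calcium channel Cacna1b (-0.54, SE 0.21) were fully below naive.

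Growth factor receptors gave 1 leading gene. Fgfr1, a receptor of fibroblast growth factors, read 7.60, 7.19 and 7.91 at 6 h, against 8.71, 8.99 and 8.19 in naive (difference -1.07, SE 0.25, adjusted p = 0.368 by limma). A second probe set gave -0.98 (SE 0.26), also without overlap, and another near the floor gave 0.50 (SE 0.54). The 46 measured trophic factor and neuropeptide genes had a median of 0.09 and a mean of -0.01, so the sign differs between the median and the mean. Of these, 1 was higher and 3 lower at the unadjusted threshold (3.18% and 4.79% of all genes). The higher one was Ntrk3, the receptor of neurotrophin-3 (0.57, SE 0.26), while Bdnf, by its probe set with the highest mean, overlapped between the groups (0.10, SE 0.33).

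Chaperone genes were lower by many probe sets but by few of the brightest ones. Of 35 genes taken by the probe set with the highest mean, 2 were lower and none higher at the unadjusted threshold (4.79% and 3.18% of all genes). The median was -0.12. Over all 76 probe sets of these genes, 19 were lower (25.0%) and 1 was higher (1.32%), where 6.29% and 3.12% of all probe sets were, and the median was -0.28. The lower ones were 13 of 39 other probe sets and 6 of 37 EST probe sets, where 8.36% of all other and 3.27% of all EST probe sets were lower. Canx, which encodes the lectin chaperone calnexin, was lower by 4 of 5 probe sets (-1.31 to -0.60), and the fifth gave -0.25 (SE 0.23). Hsp90ab1, a cytosolic Hsp90, read 7.69, 5.84 and 8.73 at 6 h by its dimmest probe set, against 9.47, 9.05 and 9.12 in naive (-1.80, SE 0.50). The 3 brighter Hsp90ab1 probe sets gave -0.30, -0.00 and 0.23, with overlap. Hsp90b1, the Hsp90 of the endoplasmic reticulum, had 2 probe sets fully below naive (-1.45, SE 0.43, and -0.65, SE 0.27) and a brighter one at 0.03. St13, a co-chaperone of Hsp70, was lower by both of its probe sets (-0.87 and -0.74). In each of these genes 6 h replicate 2 was the lowest of the 6 arrays by the probe sets that were lower.

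Ribosomal protein genes were the group with the largest positive median. These genes encode the proteins of the cytosolic ribosome, and many of their mRNAs carry a tract of pyrimidines at the 5′ end through which their translation is controlled. Of 37 measured genes, 34 lay above naive with a median of 0.37, against 49.5% of all genes above naive and a median of -0.00. The ribosomal median was 0.22 with quantile normalization. At the unadjusted threshold 11 were higher and none lower, where 3.18% and 4.79% of all genes were, and 12 lay fully above naive and none below. The list mean was 0.32, 0.31 and 0.40 on the 6 h arrays, against 0.06, -0.02 and -0.03 on the naive arrays, so all 3 arrays of 6 h, replicate 3 included, were higher. All 11 small subunit genes and 23 of 26 large subunit genes lay above naive, with medians of 0.37 and 0.35. By kind, 9 of 23 EST probe sets and 6 of 32 other probe sets were higher, with medians of 0.40 and 0.27.

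Rpl35, of the large subunit, read 10.98, 11.48 and 11.22 at 6 h, against 10.69, 10.59 and 10.30 in naive (difference 0.70, SE 0.20, adjusted p = 0.377 by limma). A second Rpl35 probe set overlapped (0.445, SE 0.24). Rps23, of the small subunit near the decoding site, read 10.96, 10.99 and 10.81 at 6 h, against 10.24, 10.28 and 10.43 in naive (0.60, SE 0.18, adjusted p = 0.388 by limma). In Rps23 the SD was 0.10 in both groups, so the difference was several times the spread between arrays. Rpl31 read 11.35, 11.30 and 11.27 at 6 h, against 10.59, 10.68 and 10.86 in naive (0.60, SE 0.21). Rpl24 did not overlap by 1 probe set (0.66, SE 0.18) and overlapped by a brighter one (0.19, SE 0.22). Rpl21 was the least even, with EST probe sets at 1.76 (SE 0.49) and 0.90 (SE 0.42) and others at -0.08 (SE 0.20) and -0.54 (SE 0.40).

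The start sites of 5 genes are shown because pyrimidine tracts lie there. They have the smallest p among genes fully above naive by the probe set with the highest mean, a rule that leaves out Rpl24. Each window holds 15 bases before and 15 after the start of the RefSeq gene model on rat build GRCr8, read 5′ to 3′ on the strand of the gene, and capitals mark any match to CTTTC, to the related word CTTTT, to the word CCTTT or to the word CTCTT, which overlap one another. They lie at chr3:43165907-43165936 (minus strand) for Rpl35, chr2:23814502-23814531 (plus) for Rps23, chr9:49143096-49143125 (plus) for Rpl31, chr5:106420526-106420555 (minus) for Rps6 and chr10:83519049-83519078 (plus) for Rpl19.
Rpl35: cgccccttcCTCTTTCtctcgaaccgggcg
Rps23: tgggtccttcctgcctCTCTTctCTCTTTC
Rpl31: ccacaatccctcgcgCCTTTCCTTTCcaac
Rps6: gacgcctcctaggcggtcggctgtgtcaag
Rpl19: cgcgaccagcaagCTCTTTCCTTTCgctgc
A match was present in 20 of the 34 measured ribosomal protein genes with a RefSeq entry (58.8%), and in 8 of the 12 that lay fully above naive (66.7%). Among all 33469 start windows in the table, 11.2% held one. Only the strand of the gene was searched, and a match describes the letters and not a site of control. Rps6 shows a window with none of these words, and the window of Rpl24, not shown, held none either.

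**Figure D4:**
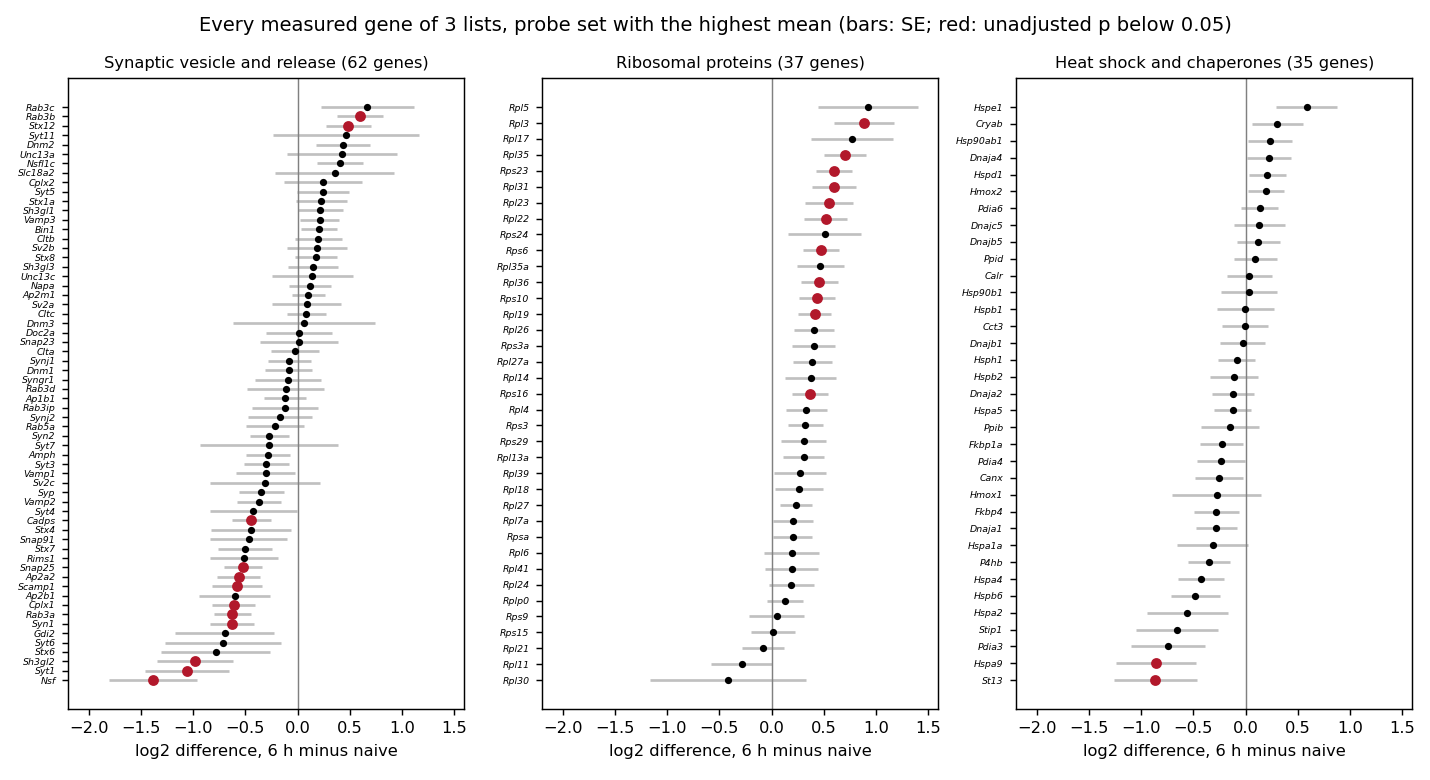
Every measured gene of 3 lists is shown by the log2 difference, 6 h minus naive, of its probe set with the highest mean, with SE as bars and red points for an unadjusted p below 0.05. Ribosomal protein genes lie right of 0 in 34 of 37 cases, vesicle genes left of 0 in 36 of 62, and chaperone genes left of 0 in 23 of 35.

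Subunits of oxidative phosphorylation, the mitochondrial chain that makes ATP, were mostly above naive. Of 50 measured genes, 39 lay above naive with a median of 0.23, and 9 were higher and 2 lower at the unadjusted threshold, where 3.18% and 4.79% of all genes were. By kind, 9 of 51 EST probe sets and 3 of 35 other probe sets were higher, with medians of 0.24 and 0.11. Complex V, the ATP synthase, had 9 of 10 genes above naive (median 0.37), complex III 4 of 4, complex IV with cytochrome c 10 of 12, and complex I 15 of 23 (median 0.13). Cox6a1, of complex IV, read 11.71, 11.86 and 11.52 at 6 h, against 11.24, 11.11 and 11.17 in naive (difference 0.52, SE 0.18, adjusted p = 0.416 by limma). Its other probe sets overlapped (0.22 and 0.08). Atp5po, the stalk subunit of ATP synthase, read 11.08, 12.02 and 11.31 at 6 h, against 10.80, 10.83 and 10.73 in naive (0.68, SE 0.23). The mitochondrially encoded COX1 was the only gene whose probe sets were all higher at the unadjusted threshold (0.75, SE 0.29, and 0.76, SE 0.33), and the groups overlapped narrowly by the second. The list mean of 0.01, 0.15 and 0.25 on the 6 h arrays overlapped that of 0.10, -0.01 and -0.08 on the naive arrays. The 2 lower genes, a share near that of all genes, were Cox4i2 (-1.24, SE 0.29, without overlap) and Cox8b (-2.08, SE 0.58, with overlap), isoforms of complex IV subunits.

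Other genes of protein synthesis and turnover differed less. Proteasome and ubiquitin genes lay above naive in 21 of 30 cases with a median of 0.09 and a mean of 0.01. The proteasome subunits Psmb1 (0.40, SE 0.19) and Psma7 (0.44, SE 0.21) lay fully above naive. Psmb4, another subunit, was fully above naive by its EST probe set (0.82, SE 0.26) and overlapped by the other ones (0.26 and 0.01). Translation factors were evenly split, with 11 of 22 above naive and a median of 0.01. Mrpl13, a protein of the mitochondrial ribosome, was at 7.53, 8.43 and 7.80 at 6 h, against 7.16, 7.30 and 7.04 in naive (0.75, SE 0.24). A second, dimmer Mrpl13 probe set overlapped (0.29, SE 0.38).

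On the higher side, the named gene with the smallest p was Slc7a1, a transporter of cationic amino acids. It read 4.67, 4.25 and 4.23 at 6 h, against 2.56, 2.34 and 3.11 in naive, where the lowest value is the floor (difference 1.72, SE 0.44, adjusted p = 0.373 by limma). Its other probe sets gave 0.09 and -0.10, with overlap. Lin7a, a scaffold of the presynaptic and postsynaptic membrane, was measured by 1 probe set at 6.78, 6.94 and 6.41 at 6 h, against 5.75, 6.17 and 5.79 in naive (0.81, SE 0.22, adjusted p = 0.373 by limma). Neither Lin7a nor Slc7a1 overlapped between the groups. Slfn2, a member of the Schlafen family known from T cells of the mouse, read 5.31, 5.49 and 4.95 at 6 h, against 4.29, 3.20 and 2.34 in naive (1.98, SE 0.54). Tprg1l, a synaptic vesicle protein also called Mover, gave 0.78 (SE 0.23) and Arpp21, a phosphoprotein regulated by cyclic AMP, gave 0.88 (SE 0.27), both without overlap. A second Arpp21 probe set overlapped (0.15, SE 0.23). Apoe, the lipid carrier made mainly by astrocytes in the brain, read 12.97, 12.83 and 12.09 at 6 h, against 11.83, 11.90 and 12.07 in naive. Replicate 3 of 6 h was only just above the highest naive array (0.70, SE 0.27), and a second Apoe probe set overlapped (0.19, SE 0.21). Tpm3, a tropomyosin, was higher by 1 of 5 probe sets (2.10, SE 0.64) and lower by another (-0.44, SE 0.18), both with overlap. Hnf4a and Rps4x-ps9 were also among the higher genes with the smallest p. Under alternative processing, the difference ran from 0.70 to 2.09 for Hnf4a and from 0.56 to 0.90 for Rps4x-ps9.

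Genes induced by neuronal activity showed little difference at 6 h. Of 38 measured genes, 15 lay above naive and the median was -0.06, a sign that turned under quantile normalization (0.01) and median centring (0.03). At the unadjusted threshold 1 was higher and 2 were lower (3.18% and 4.79% of all genes). Cdkn1a, the cell cycle inhibitor p21, read 5.54, 6.13 and 5.36 at 6 h, against 5.28, 4.18 and 4.39 in naive (difference 1.06, SE 0.42). Sgk1, a kinase induced by glucocorticoids, read 6.57, 6.33 and 6.25 at 6 h, against 6.80, 7.11 and 7.26 in naive (-0.67, SE 0.28). Both were without overlap. The transcription factors Fos (-0.15, SE 0.23) and Egr1 (0.05, SE 0.27), which mark recent activity, and Arc (-0.35, SE 0.19), which acts at spines, overlapped between the groups. None of these 3 passed the unadjusted threshold, which does not show that they were unchanged.

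Of 1091 genes measured by more than 1 probe set, 15 had all of them past the unadjusted threshold in 1 direction, and 14 of these were lower at 6 h. Besides App, Nsf, Snap25, Ppp3r1 and St13 they were Kit, Slc2a3, Vdac1, Gna12, Cd9, Ube2g1, Pygm, Cox8b and Slc4a2. Kit, the receptor of stem cell factor, gave -1.41 (SE 0.44) and -1.53 (SE 0.48), and Slc2a3, the neuronal glucose transporter GLUT3, gave -1.65 (SE 0.47) and -0.97 (SE 0.38), all without overlap. Vdac1, the main channel of the outer mitochondrial membrane, gave -1.40 (SE 0.45) and -1.02 (SE 0.36) with overlap. Among the 14 lower genes St13 alone had an EST probe set, while both COX1 probe sets were EST ones. Of all tested probe sets, 8.36% of the other kind and 3.27% of the EST kind were lower at this threshold. The part of probe kind in this count was not tested. The probe sets of a pair often share a sequence, so their number is not a count of independent measurements.

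The remaining genes with the smallest p on the lower side were mostly dim. They did not overlap between the groups by the probe set that had this p. Adam1a, a membrane protease gene, read 2.53, 2.34 and 2.70 at 6 h, at or near the floor, against 4.37, 5.04 and 4.49 in naive (difference -2.11, SE 0.47, adjusted p = 0.368 by limma). Dlk1, a Delta-like membrane protein, gave -1.48 (SE 0.36), and Alpl, the tissue-nonspecific alkaline phosphatase, gave -1.53 (SE 0.36) by a dim probe set and -0.07 (SE 0.19) by a bright one. Slc24a2, an exchanger of sodium for calcium and potassium, read 5.27, 4.66 and 6.24 at 6 h, against 6.83, 6.65 and 6.66 in naive (-1.32, SE 0.32). Without 6 h replicate 3 it was -1.75 (adjusted p = 0.0158 by limma). A second, dimmer Slc24a2 probe set overlapped (-0.12, SE 0.66). Lpl, lipoprotein lipase, was fully below naive by 1 probe set (-0.95, SE 0.23) and overlapped by the others (-0.47 and -0.01). Tgoln2, a protein of the trans-Golgi network, gave -1.60 (SE 0.39), and Fmod, the matrix protein fibromodulin, gave -1.45 (SE 0.37). Second probe sets of these genes overlapped, at -0.52 (SE 0.29) for Tgoln2 and -0.98 (SE 0.78) for Fmod.

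Structural and metabolic genes gave smaller counts, to be read against 4.79% lower and 3.18% higher among all genes. Actin and neurite growth genes had 28 of 47 below naive, a median of -0.09, and 6 lower and 1 higher at the unadjusted threshold, with Wasl, an activator of actin branching, at -1.23 (SE 0.37). Cell adhesion and matrix genes had 38 of 65 below naive, a median of -0.10, and 4 lower and none higher, among them Nrcam, an adhesion molecule of axons (-0.44, SE 0.18), and Cntn1, contactin (-1.35, SE 0.42). Microtubule and motor genes were even (16 of 34 above naive, median -0.01). Lipid and cholesterol synthesis genes lay below naive in 27 of 37 cases with a median of -0.12, and none passed the unadjusted threshold. Glycolysis genes had a median of 0.01 and 3 lower, RNA-binding protein genes a median of -0.10 and 2 lower, ion pump genes a median of -0.02 and 1 higher, and glucocorticoid responsive genes a median of 0.15 with 1 in each direction.

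Markers of other cell types were measured with the same counts. Choroid plexus, ependyma and meninges markers were lower in 6 of 19 measured genes and higher in none at the unadjusted threshold (4.79% and 3.18% of all genes), with a median of -0.30. The list mean was -0.27, -0.45 and -0.67 on the 6 h arrays, against -0.82, 0.50 and 0.32 on the naive arrays. Naive replicate 1 was thus lower than every 6 h array and the groups overlapped. Ttr (transthyretin, a carrier protein secreted by the choroid plexus) read 11.96, 10.32 and 11.03 at 6 h, against 10.80, 11.48 and 11.94 in naive (difference -0.30, SE 0.83). Cox8b and Slc4a2, named above, and Igf2 of the trophic list are members of this marker list, and its part in their differences was not tested. Oligodendrocyte markers had 10 of 13 genes below naive and a median of -0.18, with Mbp, the myelin basic protein, at -0.55 (SE 0.25). Astrocyte (median 0.11), endothelial and mural (0.12), microglial (-0.02), interneuron (-0.13), pyramidal (-0.06), blood cell (0.09) and other brain region markers (0.01) had at most 2 genes past the unadjusted threshold each.

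The 6 h arrays were also compared with the mean of the other 5 hours, a comparison that uses no naive array but the same 6 h arrays. No probe set passed the adjusted threshold (smallest adjusted p 0.364 by limma), and 450 passed the unadjusted one (7.23%), of which 147 were higher at 6 h (2.36%) and 303 lower (4.87%). Besides Ttr, the 10 smallest p-values belonged to genes already described as lower. Prkcb was lower at 6 h by 0.93 on the log2 scale than the mean of the other hours (-0.93, SE 0.19), whose 10 arrays ran from 6.95 over a median of 7.51 to 7.996. Kif3c gave -1.12 (SE 0.24), against other hours of 4.96 to 6.84 (median 6.20), so that 1 array of 0 h and 1 of 12 h lay within the 6 h range. App gave -0.96 (SE 0.21) and -0.80 (SE 0.19), with other hours from 8.35 to 9.45 by the first probe set and from 8.63 to 9.34 by the second. The highest 6 h array (8.56) was inside that range by the first probe set, and all 6 h arrays were under it by the second.

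Kcnab1 gave -2.53 (SE 0.57) against other hours of 5.77 to 6.86, again through 6 h replicates 1 and 2. Dlk1, Adam1a and Alpl gave -1.23, -1.59 and -1.20 (SE 0.29, 0.38 and 0.29). Ttr went the other way, by 3.57 (SE 0.67) and 3.59 (SE 0.84), with 6 h arrays of 10.32 to 11.96 by the probe set described above, while the other hours ran from 6.14 to 11.26 with a median of 7.02. Of the 19 measured choroid plexus, ependyma and meninges markers, Ttr included, 14 lay above the other hours. Their median was 0.31, against -0.006 over all genes. By probe set, 6 of 36 were higher and none lower at the unadjusted threshold, where 2.36% and 4.87% of all probe sets were. With 1 probe set per gene, 2 genes were higher and none lower, and Ttr was the first. The second gene was Enpp2, which encodes autotaxin (1.24, SE 0.47, and 1.36, SE 0.47). A dimmer probe set of Prlr, the prolactin receptor, gave 1.28 (SE 0.48) and one of Igfbp2, an IGF-binding protein, gave 0.95 (SE 0.44). The 2 comparisons share the 6 h arrays, so that a gene low on those arrays is low in both.

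**Figure D5:**
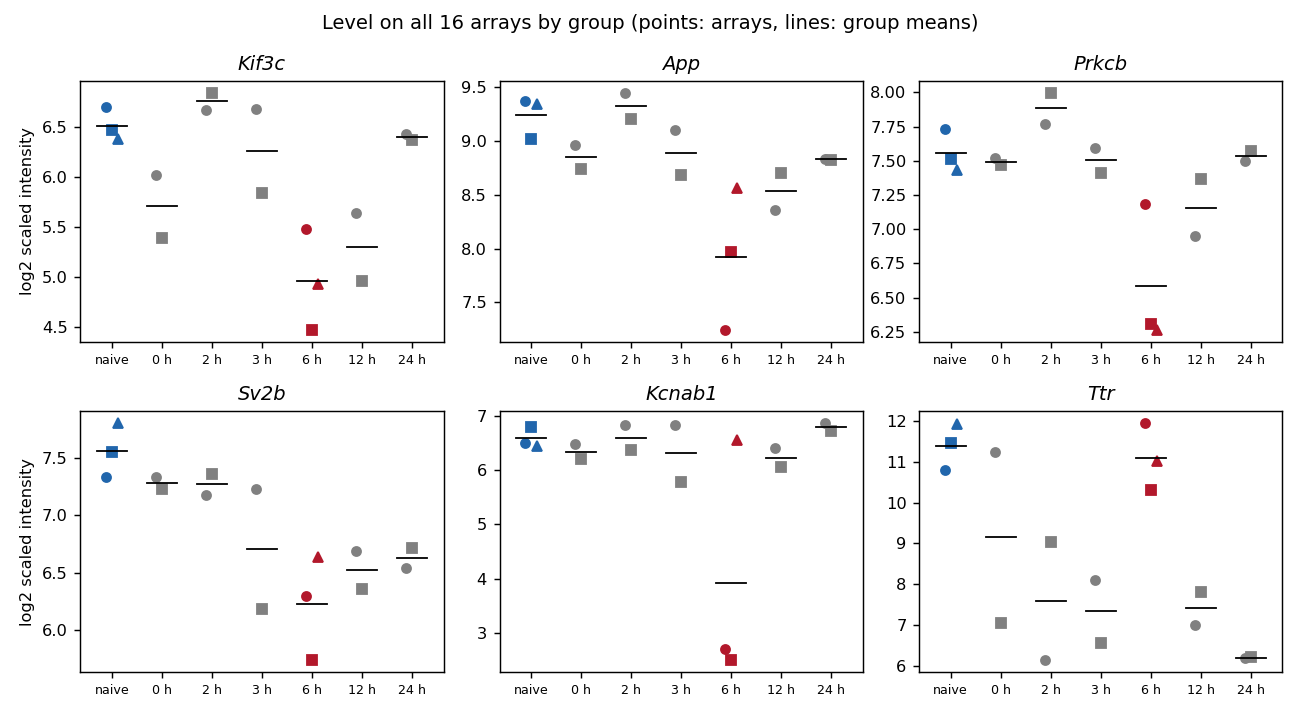
Each panel shows the log2 scaled intensity of 1 probe set on all 16 arrays, by group from naive to 24 h (points are arrays, lines are group means, blue naive, red 6 h). Kif3c, App and Prkcb have their lowest group mean at 6 h, Kcnab1 is low on 2 arrays of 6 h alone, and Ttr is high at 6 h and in naive with 1 high array at 0 h.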

How the data were processed

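Each of the 16 arrays had 1 deposited intensity per probe set on a linear scale, as the authors deposited it. Which software, background correction or scaling made them is not given in the sources used here, and probe design was read from probe set names. The table held 8799 probe sets, of which 59 controls were left out. To bring the arrays to 1 scale, each was multiplied so that its 2% trimmed mean became 105.3. Intensities below 5.05, the 20th percentile over all arrays, were raised to that floor before taking log2. Probe sets above the pooled 40th percentile (16.9) on at least 2 arrays were tested, 6220 in all. Gene names came from the array's annotation, and current symbols were looked up by their identifiers (7006 probe sets with 1 symbol, 308 with several, 1426 unnamed here). A gene in a list was represented by its probe set with the highest mean.

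Linear models of limma (version 3.58.1, R version 4.3.3) with a trended eBayes variance were fitted over all 7 groups, with Benjamini-Hochberg adjustment at 0.05 over all 6220 probe sets. They were also run on simulated data, and the outcome of that run is not reported here. Precision is limited by the number of arrays, since intensities have no read depth. Replicate numbers did not pair the arrays: same-numbered 6 h and naive arrays had deviation correlations of -0.03, -0.07 and -0.20. Genes named were the 15 higher and 15 lower with the smallest p, genes with all of 2 or more probe sets past the unadjusted threshold in 1 direction, the 10 with the smallest p against the other hours, and members of the gene lists. Ace, which is in none of these, was chosen after its values were seen. The gene lists and the genes in them were chosen with earlier results of these data known. Start windows came from RefSeq's promoter table on GRCr8, and they cover 34 of the 37 measured ribosomal protein genes. Alternatives covered normalization, floor, filter, variance model, array weights, covariates, the arrays fitted and the kind of probe set, and the last was chosen after seeing the data.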

Additional observations from a re-analysis of the deposited data

How the results depend on the processing

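The count past the adjusted threshold for 6 h against naive stayed at 0 under the alternatives run, except that leaving out single arrays gave 0 to 29 probe sets. The unadjusted count of 585 was 281 with the beta-actin ratio as a covariate and 193 over EST probe sets alone, a set with fewer probe sets, and it ran from 365 to 893 when single arrays were left out. Against the other hours, 3 probe sets passed with no filter and 0 to 8 when single arrays were left out (2 without 0 h replicate 1, 1 without 6 h replicate 1, 8 without 6 h replicate 3). The unadjusted count of 450 was 225 with array weights and ran from 273 to 785. The ribosomal median of 0.37 was 0.22 with quantile normalization, 0.45 with median centring, 0.31 over other probe sets alone, and 0.26 to 0.42 when single arrays were left out. The vesicle median of -0.12 was -0.031 with median centring, -0.29 with the mean over the probe sets of a gene, -0.025 over EST and -0.27 over other probe sets. The glutamate median of -0.22 was 0.035 over EST probe sets. The cause of these shifts was not tested. With the replicate number as a block, which does not pair these arrays, 0 probe sets passed and 613 were past the unadjusted threshold. Dim probe sets, near the floor on some arrays, limit the size of a difference that can be read.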

Other observations

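Without 6 h replicate 3, 24 of the 29 probe sets past the adjusted threshold of limma were lower at 6 h and 5 were higher. They included genes that belong to no comparison above, which were chosen after their values were seen. Hsph1, a large Hsp70-related chaperone, was lower by 3.12 on the log2 scale in the remaining 6 h arrays (-3.12, SE 0.55, adjusted p = 0.0211). The sterol oxidase Msmo1 gave -2.04 (SE 0.32), the methionine adenosyltransferase Mat2a gave -1.78 (SE 0.37), and the ubiquitin ligases Rnf4 and Pja2 gave -2.70 (SE 0.46) and -1.78 (SE 0.29). Nptn, the synaptic adhesion protein neuroplastin, gave -1.25 (SE 0.25), and Rap1b, a small GTPase, gave -1.23 (SE 0.22). The higher ones were single probe sets of Tpm3 (2.89, SE 0.59), Rpl21 (2.36, SE 0.45) and the carboxylesterase gene Ces1dl1 (1.58, SE 0.30), and 2 probe sets unnamed here (2.32, SE 0.38, and 3.16, SE 0.53). These values rest on 2 arrays of 6 h, the ones with the highest Gapdh 3′/5′ ratios of the 6, and the part of that ratio was not tested.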
